A study of Mus musculus with 12 samples.

Results

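The clustered histone genes are the replication-dependent genes for the linker histone H1 and the core histones H2A, H2B, H3, and H4. Members were taken by symbol, as every gene whose name starts with Hist1h, Hist2h, Hist3h, or Hist4h, and were kept with at least 20 reads over the 12 libraries. Of 69 such symbols among 26608 genes, 61 were kept, and the other 8 held between 0 and 16 reads each. The 61 members comprised 5 H1, 16 H2A, 16 H2B, 11 H3, and 13 H4 genes. In the GRCm38 annotation, 47 lie in the Hist1 cluster on chromosome 13, 10 in Hist2 on chromosome 3, 3 in Hist3 on chromosome 11, and 1, Hist4h4, on chromosome 6.

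RNA was sequenced from sorted CD4+ T cells that lacked YFP(FOXP3), taken from mice aged 14 weeks, with the spleen pooled with the inguinal and cervical lymph nodes. The control group was Foxp3Cre WT, and both other groups were Foxp3-Cre Tet2/3 fl/fl (DKO), so Cre was expressed under Foxp3 control in every mouse and Tet2 and Tet3 were floxed in the DKO groups only. DKO mice were divided by the study into DKO-moderate and DKO-severe by how many leukocytes the spleen and lymph nodes held. Each group had 4 libraries. The YFP reporter marks FOXP3 expression at the time of sorting, so cells that had lost FOXP3 and cells that never had it were not separated.

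Histones wrap DNA into nucleosomes, and a dividing cell makes a new set for each new copy of its genome. The clustered genes supply most of that set during S phase. Most of them have no introns, and their mRNA ends just after a conserved stem-loop in place of a poly(A) tail. The stem-loop is bound by SLBP, which carries the mRNA through processing and translation, and the mRNA is degraded when DNA synthesis stops. Some clustered genes, of which Hist1h1c, Hist2h2be, and Hist1h2bc are known cases, also give polyadenylated mRNA, which is made outside S phase and in resting cells. A separate set of dispersed genes, such as H3f3b and H2afz, makes replication-independent histones throughout the cell cycle. Resting CD4+ T cells do not synthesise DNA, and activated ones divide quickly.

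The stem-loop is what the transcripts of all 5 histone types share, and it was searched for in the annotated transcripts as the pattern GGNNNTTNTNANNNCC on the transcribed strand after the stop codon. It was found in 43 of the 61 members. Most of the others are annotated only to the stop codon, as are Hist1h1b and Hist1h3h, or 1 base past it. The pattern could not be found in such transcripts, so its absence there does not show that the gene lacks it. The 43 members held 8 distinct forms. The windows below show 5 of these forms, from 7 members that passed the test in DKO-severe cells, with the 16 bases of the stem-loop in capitals.
Hist3h2a (H2A, chr11:58955167-58955192, + strand): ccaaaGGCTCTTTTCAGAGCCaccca
Hist1h1c (H1, chr13:23739507-23739532, + strand): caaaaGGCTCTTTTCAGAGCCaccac
Hist1h2ao (H2A, chr13:21810893-21810918, + strand): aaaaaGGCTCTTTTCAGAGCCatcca
Hist1h3c (H3, chr13:23745042-23745067, - strand): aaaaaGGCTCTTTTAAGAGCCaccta
Hist1h3g (H3, chr13:23535884-23535909, + strand): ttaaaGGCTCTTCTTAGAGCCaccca
Hist1h4i (H4, chr13:22040961-22040986, - strand): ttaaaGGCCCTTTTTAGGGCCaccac
Hist4h4 (H4, chr6:136803993-136804018, - strand): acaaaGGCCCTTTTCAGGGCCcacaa
Positions are those of GRCm38, and the bases were read from GENCODE transcripts. The form in Hist3h2a, Hist1h1c, and Hist1h2ao was the commonest, with 24 members, and none of these was an H4 gene. The form in Hist4h4 was found in 7 members, all of them H4 genes. The levels of Hist3h2a and Hist1h2ao, which hold the same 16 bases, moved in opposite directions in DKO-severe cells, as given below.

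All libraries were deep, with 29254260 to 42133536 reads on genes, but the members received few of them, 1501 to 3380 reads per library. Levels are given as normalised read counts in counts per 1000000 reads (CPM), scaled by edgeR's TMM method and not divided by gene length. All 61 members passed the minimum of 10 reads within a group that a gene needed to be tested, and 16035 genes were tested. Only 9 members reached a mean of 1 CPM, and 19 had at least 1 library at 0, so for many members a difference would have to be large to be detectable. Reads were kept by the authors only where they had a single position in the genome, and histone genes hold near-identical copies, so these counts undercount such copies. For 24 members, fewer than 50% of the 100-base stretches of the transcript were unique to the gene. Stretches shared with an overlapping gene were also counted as not unique, as for Hist2h2bb, which overlaps Gm42743. The 24 are therefore not all shown to have near-identical copies. The type of RNA selection before library preparation is not given in the sources used here, and transcripts without a poly(A) tail are lost where poly(A) RNA is selected.

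The marker levels of the sorted cells were measured in each library, since a sort can carry other cells along. All 8 core T cell genes (Cd3e, Cd4, and others) were present. Their summed level was 4790 to 5300 CPM in WT, 5223 to 5704 in DKO-moderate, and 4267 to 4836 in DKO-severe libraries. The 13 neutrophil genes summed to 9.83 to 15 CPM in WT and to 13.5 to 37.8 CPM in DKO-moderate libraries, and to 2308, 866, 45.9, and 28.1 CPM in DKO-severe libraries 1 to 4. All 13 were higher in DKO-severe cells by edgeR, and Elane and Ly6g were at 0 in every WT library. The 8 B cell genes summed to 6.81 to 223 CPM in WT, 20.7 to 47.3 in DKO-moderate, and 36.4 to 385 in DKO-severe libraries, and the 6 monocyte and macrophage genes, 5 of them listed, to 5.80 to 165, 10.5 to 46.4, and 73.2 to 463 CPM. Of plasma cell genes, 4 of 6 were listed, with 60.7 to 74.8 CPM in WT and 145 to 175 CPM in DKO-severe libraries. Of the 8 erythroid genes, 6 were listed, with at most 14.9 CPM in WT and 33.7 CPM in DKO-severe libraries, and both CD8 genes summed to 16.8 to 26.7 CPM in WT and 1.03 to 13.2 CPM in DKO-severe libraries. The highest B cell, monocyte and macrophage, and erythroid sums in WT all came from WT library 3. The other WT libraries were at 6.81 to 15.1, 5.80 to 9.78, and 0.144 to 1.20 CPM. The targeted genes were checked as well. Tet2 did not pass in DKO-severe cells (52.0 ± 8.05 CPM in WT and 60.7 ± 4.47 in DKO-severe, SD, n = 4, edgeR adjusted p = 0.23), and Tet3 was lower (195 ± 19.6 CPM in WT and 95.9 ± 6.37 in DKO-severe, edgeR adjusted p = 0.00086). Counts over whole genes do not show a deletion of single exons.

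Over all 61 members, the summed level was lower in the DKO groups. It was 86.6, 80.1, 78.5, and 92.4 CPM in WT, 76.3, 47.3, 78.3, and 70.5 CPM in DKO-moderate, and 59.8, 59.3, 56.8, and 57.5 CPM in DKO-severe libraries 1 to 4. Every DKO-severe library lay below every WT library, and DKO-moderate library 2 was the lowest of all. The means were 84.4 ± 6.36, 68.1 ± 14.2, and 58.3 ± 1.42 CPM (SD, n = 4). In a bulk sample, fewer cells with a transcript and less of it per cell cannot be told apart.

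The sum was dominated by a few genes, ranked here by their mean CPM over all 12 libraries, a ranking that favours genes high in WT. Hist3h2a, Hist1h1c, Hist2h2be, and Hist3h2ba together held 71.2% of the reads on members for WT, 52.6% for DKO-moderate, and 42.9% for DKO-severe libraries. Their summed level was 60.3 ± 3.59 CPM for WT, 35.8 ± 8.75 for DKO-moderate, and 25.1 ± 1.85 for DKO-severe libraries, with no overlap between any DKO library and any WT library. Within the DKO-severe group alone Hist1h4i, with a mean of 5.39 CPM, stood above Hist3h2ba, with 4.59 CPM. The other 57 members had the opposite order, from 24.2 ± 4.28 CPM in WT to 32.3 ± 8.47 in DKO-moderate and 33.2 ± 1.48 in DKO-severe cells, where every DKO-severe library lay above every WT library and the DKO-moderate libraries overlapped both. These sums were not tested.

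**Figure D1:**
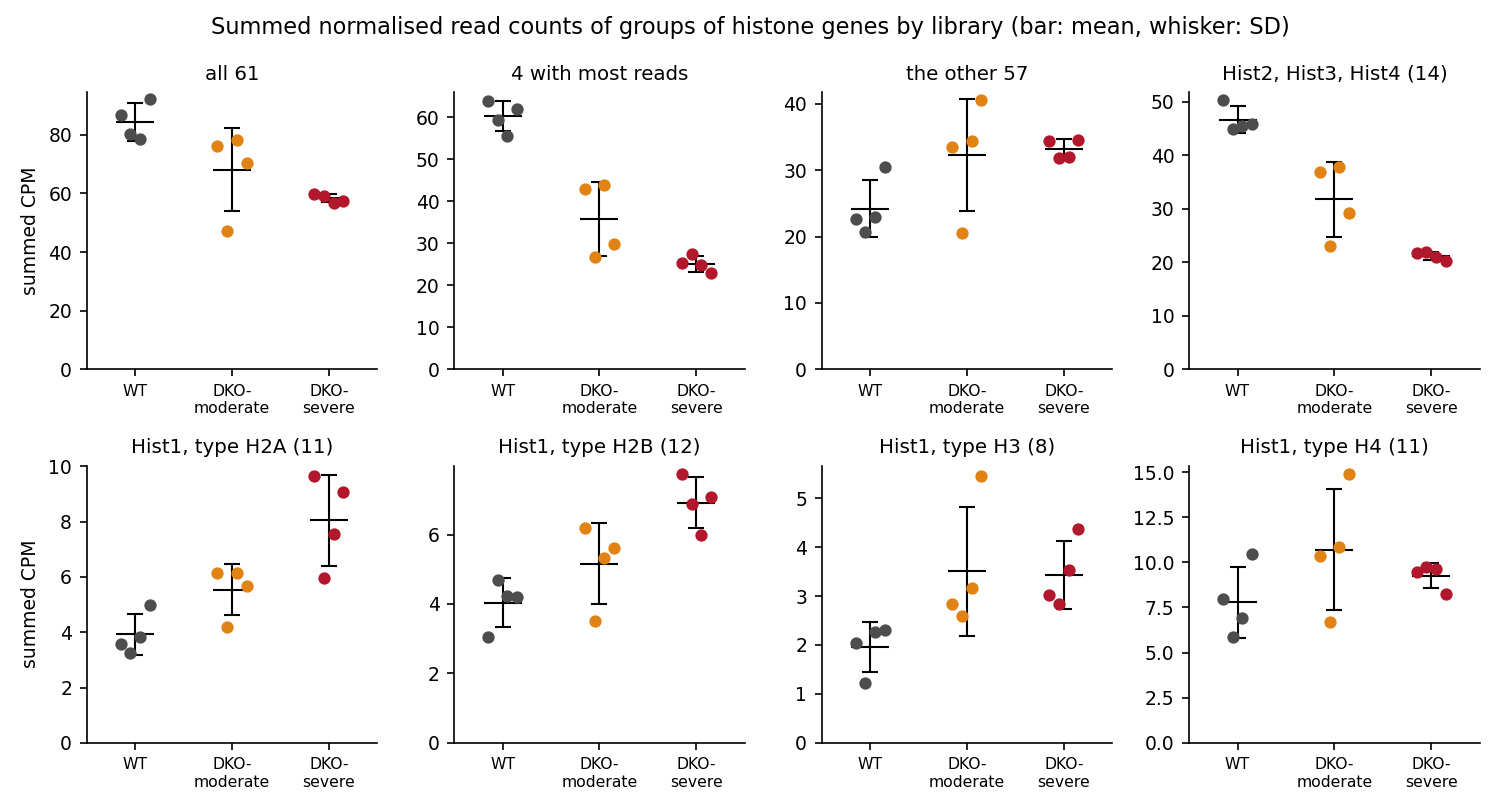
Summed normalised read counts (CPM, vertical axes from 0) of all 61 members and of groups of them, in the 4 WT, 4 DKO-moderate, and 4 DKO-severe libraries. Points are libraries, the bar is the mean, and the whisker is the SD. The 4 members with the most reads had means of 60.3 CPM in WT and 25.1 CPM in DKO-severe libraries, and the other 57 had means of 24.2 and 33.2 CPM.

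When DKO-severe cells were compared with WT, 12 members were higher and 7 were lower at an edgeR adjusted p under 0.05, and 42 did not pass. Over all genes tested, 26.6% were higher and 25.9% were lower in the same comparison. The members' own shares were 19.7% and 11.5%, neither above that background, so the number of calls is not a result about histone genes. The median log2 fold change of the 61 members was 0.42, against -0.01 over all genes tested. All libraries of DKO-severe lay above all of WT for 15 members and below all of WT for 9, against 24.6% and 27.3% of all genes tested.

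By histone type, the share of members higher ran from 7.69% for H4 to 27.3% for H3, so no type stood far above the 26.6% of all genes. By cluster, 12 of 47 Hist1 members were higher, a share of 25.5% that is close to the same background, and 1, Hist1h1c, was lower, or 2.13% against 25.9% of all genes. The Hist1 median log2 fold change was 0.99. In Hist2, Hist3, and Hist4, none of 14 members was higher, 6 or 42.9% were lower, and the median was -0.88. The difference between the clusters was not tested. Summed over the 14, the level was 46.6 ± 2.5 CPM for WT, 31.7 ± 6.96 for DKO-moderate, and 21.2 ± 0.743 for DKO-severe libraries, and for all of Hist1 it was 37.8 ± 5.98, 36.4 ± 8.12, and 37.1 ± 0.972 CPM. Without DKO-severe libraries 1 and 2, which had the highest neutrophil marker levels, 10 members were higher, 9 of them among the 12, and 6 were lower, all among the 7. Of all genes tested in that fit, 23.6% were higher and 18.8% were lower. With the neutrophil and B cell marker levels as terms in the fit, 1 member, Hist1h2ap, was higher and none was lower, while 11.5% of all genes tested were higher and 4.38% were lower. The part of the other marker lists in these calls was not tested. DESeq2 called 14 higher and 7 lower.

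**Figure D2:**
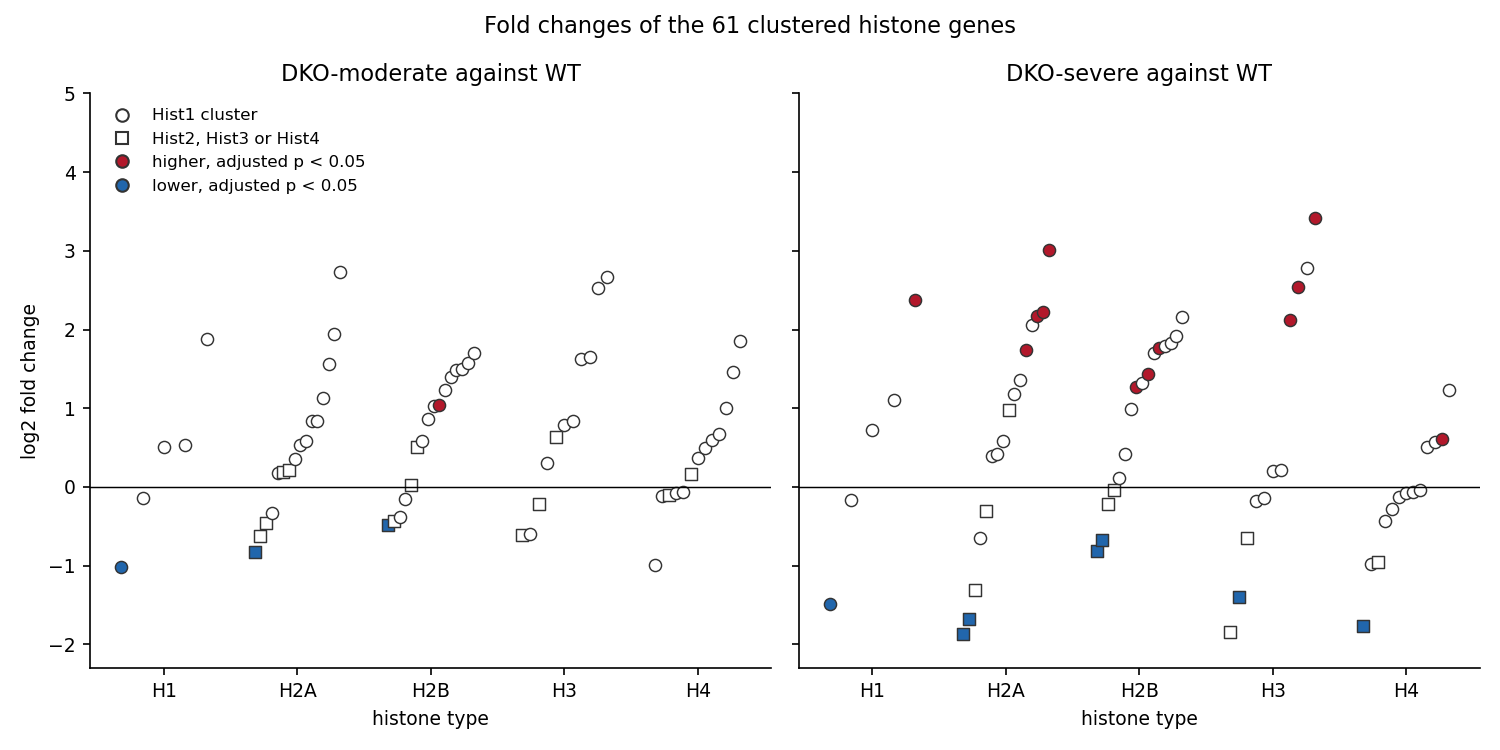
log2 fold changes of the 61 members by histone type, DKO-moderate against WT (left) and DKO-severe against WT (right). Circles are Hist1 genes, squares are Hist2, Hist3, or Hist4 genes, and filled symbols passed an edgeR adjusted p of 0.05. In DKO-severe cells all 12 red symbols are circles, and 6 of the 7 blue symbols are squares.

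Hist3h2a, a single-exon H2A gene of the small Hist3 cluster (chr11:58954685-58956830), had the most reads of all members. It was at 25.1, 21.2, 22.3, and 18.6 CPM in WT, 15.3, 8.04, 16.1, and 9.78 CPM in DKO-moderate, and 5.84, 8.25, 6.76, and 6.34 CPM in DKO-severe libraries 1 to 4. Both DKO groups lay wholly below WT, and only DKO-severe library 2 reached into the DKO-moderate range. The log2 fold change of DKO-severe against WT was -1.68 ± 0.22 (SE, n = 4, edgeR adjusted p = 7.4e-05, exact permutation p = 0.029, the smallest that 4 against 4 libraries allow). DKO-moderate cells were lower than WT by 0.82 on the log2 scale (edgeR adjusted p = 0.021) and DKO-severe cells were lower than DKO-moderate by 0.86 (edgeR adjusted p = 0.018). The call in DKO-moderate cells was lost without WT library 1 (edgeR adjusted p = 0.066), and that between the DKO groups was lost without DKO-moderate library 1 or 3 or DKO-severe library 1, 3, or 4 (highest edgeR adjusted p = 0.059). The annotated gene overlaps Trim17 on the same strand, which had 15, 4, and 3 reads in the 3 groups. In DKO-severe against WT without libraries 1 and 2 the log2 fold change was -1.70, and with the marker terms it was -1.26 and no longer passed (edgeR adjusted p = 0.066).

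Hist1h1c (chr13:23738808-23740367) encodes a linker histone, which binds the DNA between nucleosomes. Its levels were 18.4, 19.0, 14.7, and 22.4 CPM in WT, 11.7, 6.52, 12.6, and 5.96 CPM in DKO-moderate, and 6.07, 8.46, 6.69, and 5.27 CPM in DKO-severe libraries. WT lay above both DKO groups, which overlapped each other. The log2 fold change was -1.49 ± 0.26 in DKO-severe (edgeR adjusted p = 0.00052) and -1.01 ± 0.26 in DKO-moderate cells (edgeR adjusted p = 0.018). In DKO-moderate cells the call was lost without WT library 4 or DKO-moderate library 2 (highest edgeR adjusted p = 0.055). The only other H1 genes named by level, Hist1h1d and Hist1h1e, had higher means in DKO-severe cells (0.798 against 0.370 and 1.34 against 0.808 CPM) but their groups overlapped and neither passed (edgeR adjusted p = 0.084 and 0.22). Hist1h1b, an H1 gene known for expression in dividing cells, was at 0.0846 ± 0.0758 CPM in WT and 0.461 ± 0.135 in DKO-severe libraries, a log2 fold change of 2.38 ± 0.63 (edgeR adjusted p = 0.0074). For Hist1h1a, with 33 reads in WT and 32 in DKO-severe libraries, no difference was detectable. Summed over the 5 H1 genes, the level was 20.1 ± 3.58 CPM in WT and 9.43 ± 1.73 in DKO-severe libraries, so the total followed Hist1h1c.

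Hist2h2be (chr3:96221119-96223738) and Hist3h2ba (chr11:58948920-58949533) are H2B genes outside Hist1. Hist2h2be was at 12.9, 10.9, 12.4, and 13.9 CPM in WT, 10.2, 7.79, 9.89, and 7.81 CPM in DKO-moderate, and 7.40, 7.34, 6.40, and 7.35 CPM in DKO-severe libraries. The groups did not overlap in any of the 3 comparisons, and the log2 fold change was -0.81 ± 0.14 in DKO-severe (edgeR adjusted p = 0.00053) and -0.49 ± 0.14 in DKO-moderate cells (edgeR adjusted p = 0.033). In DKO-moderate cells the call was lost without WT library 1, 3, or 4 or DKO-moderate library 2 or 4 (highest edgeR adjusted p = 0.092), and with the replicate block (edgeR adjusted p = 0.063). Hist3h2ba went from 7.34 ± 0.851 CPM in WT to 5.43 ± 0.775 in DKO-moderate and 4.59 ± 1.18 in DKO-severe libraries, with all DKO libraries below all WT libraries. It passed in DKO-severe (log2 fold change -0.68 ± 0.21, edgeR adjusted p = 0.015) and not in DKO-moderate cells (log2 fold change -0.43, edgeR adjusted p = 0.16), and the DKO groups did not differ from each other past the threshold (edgeR adjusted p = 0.41). The Hist3h2ba call in DKO-severe cells was lost with scaling by library size alone. Hist1h2bc, the third H2B gene with many reads and, like Hist2h2be, known to give polyadenylated mRNA, was at 2.21, 3.16, 2.87, and 2.16 CPM in WT and 3.63, 2.83, 2.55, and 2.30 CPM in DKO-severe libraries. Its groups overlapped and it did not pass (log2 fold change 0.12 ± 0.28, edgeR adjusted p = 0.74).

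**Figure D3:**
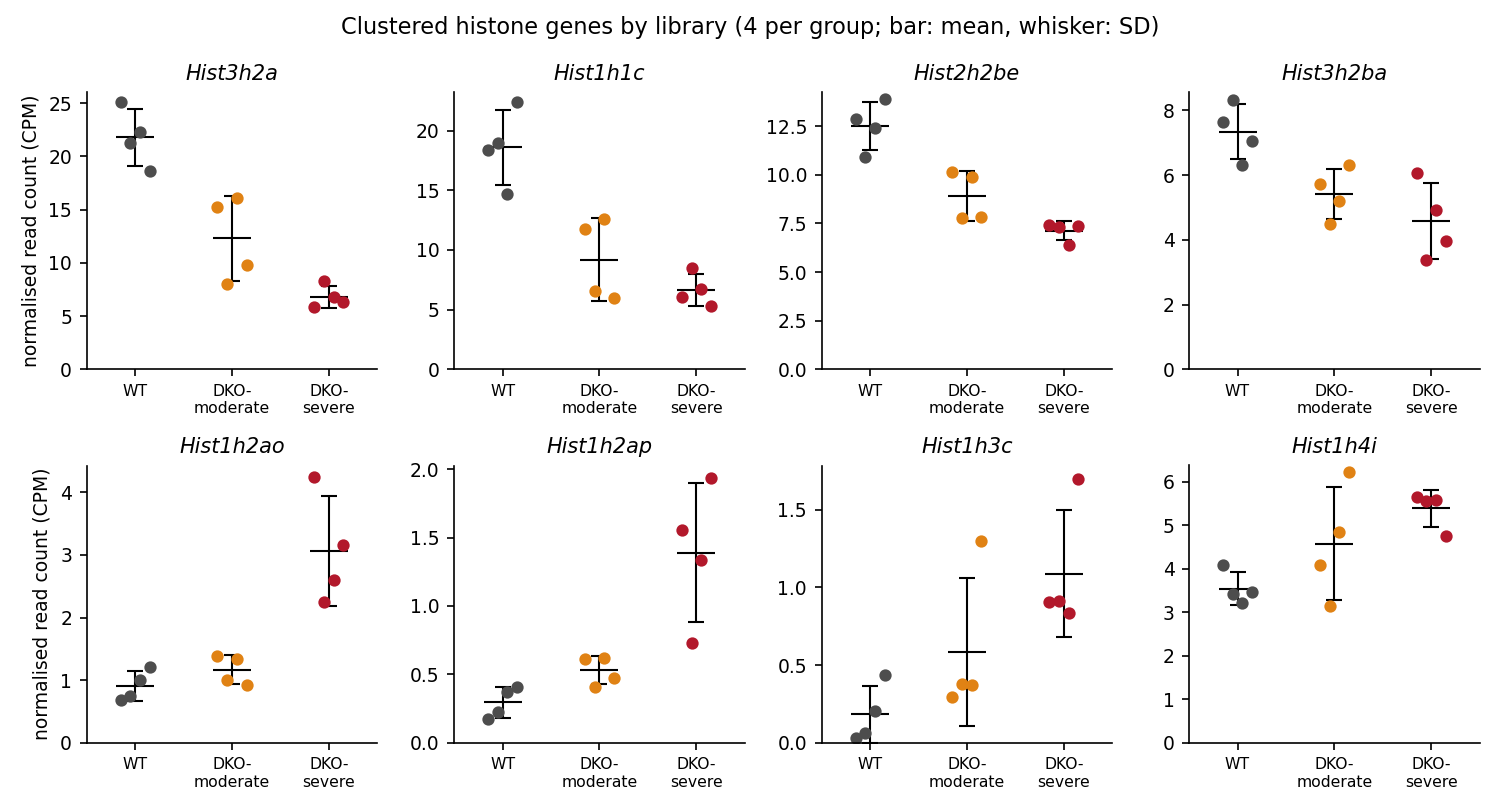
Normalised read counts (CPM, vertical axes from 0) of 8 members in each library. Points are libraries, the bar is the mean, and the whisker is the SD of 4 libraries. In the upper row all DKO-severe libraries lie below all WT libraries, and in the lower row all lie above them.

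Of the 16 H2A genes, 4 were higher and 2 were lower in DKO-severe cells, or 25% and 12.5% against 26.6% and 25.9% of all genes tested. All 4 that were higher lie in Hist1. Hist1h2ao (chr13:21810465-21810944) was at 0.690, 0.742, 1.01, and 1.20 CPM in WT, 1.38, 1.01, 1.34, and 0.927 CPM in DKO-moderate, and 4.25, 2.25, 2.59, and 3.16 CPM in DKO-severe libraries. All DKO-severe libraries lay above all libraries of both other groups, by a log2 fold change of 1.75 ± 0.30 over WT (edgeR adjusted p = 0.00046) and 1.39 ± 0.29 over DKO-moderate cells (edgeR adjusted p = 0.0091). Hist1h2ap, another H2A gene of Hist1, was at 0.172, 0.226, 0.374, and 0.410 CPM in WT, 0.611, 0.410, 0.621, and 0.477 CPM in DKO-moderate, and 1.56, 0.731, 1.33, and 1.94 CPM in DKO-severe libraries. Again all DKO-severe libraries lay above all others, with log2 fold changes of 2.22 ± 0.40 over WT (edgeR adjusted p = 0.00066) and 1.38 ± 0.38 over DKO-moderate cells (edgeR adjusted p = 0.026). The second call was lost without DKO-moderate library 1, 2, or 3 or DKO-severe library 1 or 4 (highest edgeR adjusted p = 0.065). No other member was higher when DKO-severe was compared with DKO-moderate cells. Both are near copies of other H2A genes, with 7.35% and 7.83% of their 100-base stretches unique, so reads of one copy may stand for several, and their values are uncertain as levels of single genes.

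Hist1h2ab and Hist1h2ag, named after their values were seen, were the other H2A genes that passed. Hist1h2ab had 4 reads for WT, 18 for DKO-moderate, and 37 for DKO-severe libraries, and a log2 fold change of 3.01 ± 0.83 (edgeR adjusted p = 0.0097). Hist1h2ag rose from 0.0997 ± 0.0658 to 0.464 ± 0.188 CPM, a log2 fold change of 2.17 ± 0.59 (edgeR adjusted p = 0.0085). Among the H2A genes of Hist1, the summed level was 3.92 ± 0.758 CPM for WT, 5.54 ± 0.927 for DKO-moderate, and 8.06 ± 1.65 for DKO-severe libraries. Hist1h2ac was the Hist1 H2A gene with the second most reads and had a lower mean in DKO-severe libraries, 0.767 against 1.21 CPM, without passing (edgeR adjusted p = 0.20).

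Outside Hist1, the H2A genes of Hist2 had few reads. Hist2h2aa1 was at 0.575, 0.419, 0.345, and 0.492 CPM in WT, 0.399, 0.189, 0.298, and 0.291 CPM in DKO-moderate, and 0.130, 0.122, 0.119, and 0.120 CPM in DKO-severe libraries. DKO-severe lay below both other groups, with log2 fold changes of -1.87 ± 0.38 against WT (edgeR adjusted p = 0.0014) and -1.25 ± 0.38 against DKO-moderate cells (edgeR adjusted p = 0.037). The call against DKO-moderate was lost in 9 of the 12 fits that left out 1 library, all but those without WT library 1 or 3 or DKO-moderate library 2 (highest edgeR adjusted p = 0.11), and with the replicate block (edgeR adjusted p = 0.073). The same call was not made with DESeq2, with library size alone, without the filter, or with only both groups compared. Its copy Hist2h2aa2 did not pass (0.282 against 0.110 CPM, edgeR adjusted p = 0.10). Neither gene had a 100-base stretch of its own, so the level of either is uncertain as that of a single gene. Hist2h2aa1 also overlaps Gm20634 on the same strand, and stretches shared with that gene were counted as not unique too. Hist2h2ab, with 35 reads in all, and Hist2h2ac (0.637 against 0.515 CPM) did not pass (edgeR adjusted p = 0.31 and 0.57).

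All 12 H2B genes of Hist1 had a positive log2 fold change in DKO-severe cells, with a median of 1.57. That of Hist1h2bc was only 0.12. It turned negative in 1 of the fits that left out 1 library (-0.0239) and without DKO-severe libraries 1 and 2. Of the 12, 3 passed, a share of 25% that is near the 26.6% of all genes tested. The summed level of the 12 was 4.04 ± 0.697 CPM for WT, 5.16 ± 1.16 for DKO-moderate, and 6.92 ± 0.735 for DKO-severe libraries. Hist1h2be was at 0.316, 0.258, 0.345, and 0.383 CPM in WT, 0.744, 0.756, 0.671, and 0.530 CPM in DKO-moderate, and 0.714, 1.07, 0.714, and 0.670 CPM in DKO-severe libraries. Both DKO groups lay above WT, with log2 fold changes of 1.04 ± 0.31 in DKO-moderate (edgeR adjusted p = 0.036) and 1.27 ± 0.31 in DKO-severe cells (edgeR adjusted p = 0.0043). It was the only member called higher in DKO-moderate cells, and that call was lost in 8 of the 12 fits that left out 1 library, those without any 1 WT library, DKO-moderate library 1, 2, or 3, or DKO-severe library 3 (highest edgeR adjusted p = 0.10), and with the replicate block (edgeR adjusted p = 0.083). The annotation has it overlap Hist1h1e on the same strand. Hist1h2bm (0.0782 against 0.277 CPM, log2 fold change 1.77 ± 0.47, edgeR adjusted p = 0.0076) and Hist1h2bg (0.364 against 0.993 CPM, log2 fold change 1.44 ± 0.50, edgeR adjusted p = 0.030) passed in DKO-severe cells. The Hist1h2bg call was lost with the replicate block (edgeR adjusted p = 0.061), without DKO-severe libraries 1 and 2 (edgeR adjusted p = 0.12), and without WT library 1 or 3 or DKO-severe library 2 (highest edgeR adjusted p = 0.079). These 3 H2B genes were named after their values were seen.

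Among the 11 H3 genes, 3 were higher and 1 was lower in DKO-severe cells, or 27.3% and 9.09% against 26.6% and 25.9% of all genes tested. Hist1h3c (chr13:23744973-23745602) was at 0.0287, 0.0645, 0.201, and 0.437 CPM in WT, 0.292, 0.378, 0.373, and 1.30 CPM in DKO-moderate, and 0.909, 0.913, 0.833, and 1.70 CPM in DKO-severe libraries. DKO-severe lay wholly above WT, and library 4 was the highest of its group in all 3 groups. The log2 fold change was 2.54 ± 0.72 (edgeR adjusted p = 0.011). Hist1h3g was at 0 in 3 of the 4 WT libraries, with 3 reads in the group against 40 in DKO-severe libraries, a ratio of 12.4 after scaling (95% exact interval 3.95 to 62.7, for counting error only). Hist1h3h, the third, rose from 0.0557 ± 0.0588 to 0.259 ± 0.0672 CPM (log2 fold change 2.12 ± 0.78, edgeR adjusted p = 0.037). The Hist1h3h call was lost in 6 of the 12 fits that left out 1 library, those without WT library 1, 2, or 3 or DKO-severe library 1, 3, or 4 (highest edgeR adjusted p = 0.082), and without DKO-severe libraries 1 and 2 together (edgeR adjusted p = 0.067). Of its 100-base stretches, 8.01% were unique. Hist1h3g and Hist1h3h were named after their values were seen. Hist1h3a and Hist1h3e, which had more reads than these, did not pass (log2 fold changes 0.20 and -0.18, edgeR adjusted p = 0.71 and 0.67).

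Outside Hist1, an H3 and an H4 gene were lower. Hist2h3c1 was at 0.779 ± 0.211 CPM for WT, 0.669 ± 0.285 for DKO-moderate, and 0.294 ± 0.0377 for DKO-severe libraries, lower than WT by 1.39 on the log2 scale (SE 0.38, edgeR adjusted p = 0.0089). None of its 100-base stretches was unique and it overlaps Gm20634 on the same strand, so its level is uncertain as that of a single gene. The near copies Hist2h3b and Hist2h3c2 had lower means in DKO-severe cells too and did not pass (edgeR adjusted p = 0.33 and 0.10). Hist4h4 was at 0.632, 0.484, 0.316, and 0.929 CPM in WT, 0.532, 0.315, 0.944, and 0.397 CPM in DKO-moderate, and 0.162, 0.213, 0.238, and 0.0718 CPM in DKO-severe libraries. WT and DKO-moderate overlapped, and all DKO-severe libraries lay below both (log2 fold change -1.77 ± 0.51 against WT, edgeR adjusted p = 0.012, and -1.66 ± 0.51 against DKO-moderate, edgeR adjusted p = 0.039). The call against WT was lost without DKO-severe libraries 1 and 2 (edgeR adjusted p = 0.054). That against DKO-moderate was lost with library size alone, with the replicate block (edgeR adjusted p = 0.089), and in 8 of the 12 fits that left out 1 library, those without WT library 1 or 2, DKO-moderate library 1 or 3, or any 1 DKO-severe library (highest edgeR adjusted p = 0.13). Hist2h4 did not pass (0.634 against 0.324 CPM, edgeR adjusted p = 0.068), nor did Hist2h2bb and Hist3h2bb-ps, annotated as a pseudogene, with log2 fold changes of -0.22 and -0.04 (edgeR adjusted p = 0.72 and 0.94).

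Of the 13 H4 genes, 1 was higher and 1, Hist4h4, was lower in DKO-severe cells, or 7.69% each against 26.6% and 25.9% of all genes tested. The summed level of the 13 was 9.02 ± 2.19 CPM for WT, 12 ± 3.68 for DKO-moderate, and 9.76 ± 0.716 for DKO-severe libraries. Hist1h4i (chr13:22040636-22041362) was at 4.08, 3.42, 3.22, and 3.47 CPM in WT, 4.09, 3.15, 4.84, and 6.23 CPM in DKO-moderate, and 5.65, 5.57, 5.59, and 4.76 CPM in DKO-severe libraries. DKO-severe lay above WT by a log2 fold change of 0.60 ± 0.21 (edgeR adjusted p = 0.031), and DKO-moderate overlapped both. It did not pass without DKO-severe libraries 1 and 2 (log2 fold change 0.58, edgeR adjusted p = 0.10), with the replicate block (edgeR adjusted p = 0.056), or without WT library 2, 3, or 4 or DKO-severe library 1 (highest edgeR adjusted p = 0.070). Hist1h4b and Hist1h4d had their highest means in DKO-moderate cells, at 1.51 CPM each against 0.545 and 0.944 in WT, and did not pass (edgeR adjusted p = 0.063 and 0.20).

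None of the members not named above passed in any of the 3 comparisons, and each had a mean under 1 CPM over the 12 libraries. Their log2 fold changes of DKO-severe against WT were lowest for Hist1h4h, at -0.98. At the other end, Hist1h3d had 2 reads in WT and 18 in DKO-severe libraries, a ratio of 8.37 after scaling (95% exact interval 2 to 74.4, for counting error only).

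In DKO-moderate against WT, 1 member was higher and 3 were lower, where 12.3% of all genes tested were higher and 4.74% were lower. The 3 were Hist3h2a, Hist1h1c, and Hist2h2be. The median log2 fold change of the members was 0.54, against 0.00 over all genes, and 43 of 61 were positive. In Hist1 the median was 0.83, with 1 member higher and 1 lower. DKO-moderate and DKO-severe cells were both compared with the same WT libraries, and the values of the comparisons are therefore not independent.

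In DKO-severe against DKO-moderate, 2 members were higher and 4 were lower, where 9.41% of all genes tested were higher and 10.7% were lower. The 4 were Hist3h2a, Hist2h2aa1, Hist2h3c1 (0.294 against 0.669 CPM, log2 fold change -1.18 ± 0.38, edgeR adjusted p = 0.046), and Hist4h4, and none is in Hist1. The Hist2h3c1 call was lost with the replicate block (edgeR adjusted p = 0.083) and in 10 of the 12 fits that left out 1 library, all but those without DKO-moderate library 2 or 4 (highest edgeR adjusted p = 0.15). DESeq2's size factors, library size alone, and a fit without the filter also lost it. The median was -0.01 over all members, 0.23 in Hist1, and -0.86 in Hist2, Hist3, and Hist4. None of the 4 passed without DKO-severe libraries 1 and 2, where 5.62% of all genes tested were lower. The same held with the neutrophil and B cell marker terms (0.0811% of all genes lower) and with only both groups compared (6.13%).

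The annotated end of the transcript was set beside these values. Transcripts annotated to stop within 100 bases after the stem-loop were set apart from longer ones. The annotated end is not a measurement of a poly(A) tail, which was not made. Of 21 members that end at the stem-loop, 7 were higher and 1 was lower in DKO-severe cells, with a median log2 fold change of 1.77. Of 24 with a longer annotated transcript, which include Hist1h2bc and Hist2h2be, in whose transcripts the pattern was not found, 3 were higher and 6 were lower, with a median of -0.11. No stem-loop was found in 16 others, most of them annotated only to the stop codon or 1 base past it. For those, the annotation could not show one. Of the 16, 2 were higher and none was lower. The shares called higher were 33.3%, 12.5%, and 12.5%, against 26.6% of all genes tested, and the shares called lower were 4.76%, 25%, and 0%, against 25.9%, so the calls in the first class that were higher and in the second that were lower were near the background.

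Members that end at the stem-loop summed to 5.98 ± 2.18 CPM for WT, 9.61 ± 2.78 for DKO-moderate, and 11.5 ± 2.06 for DKO-severe libraries. WT and DKO-severe libraries overlapped in this sum, with WT library 4 at 8.97 and DKO-severe library 2 at 8.74 CPM. Those with a longer transcript summed to 75.4 ± 4.71, 53.9 ± 11.9, and 42.8 ± 3.13 CPM, with all DKO libraries below all WT libraries. Those without a stem-loop in the annotation summed to 3.03 ± 0.841, 4.54 ± 1.76, and 3.95 ± 0.388 CPM, and their groups overlapped. The 4 members with the most reads all have a longer annotated transcript, with 1643 annotated bases after the stem-loop in Hist3h2a, 840 in Hist1h1c, and 169 in Hist3h2ba. This grouping was chosen after the fold changes were seen, and it overlaps with the clusters, since 3 of the 14 members outside Hist1 end at the stem-loop.

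**Figure D4:**
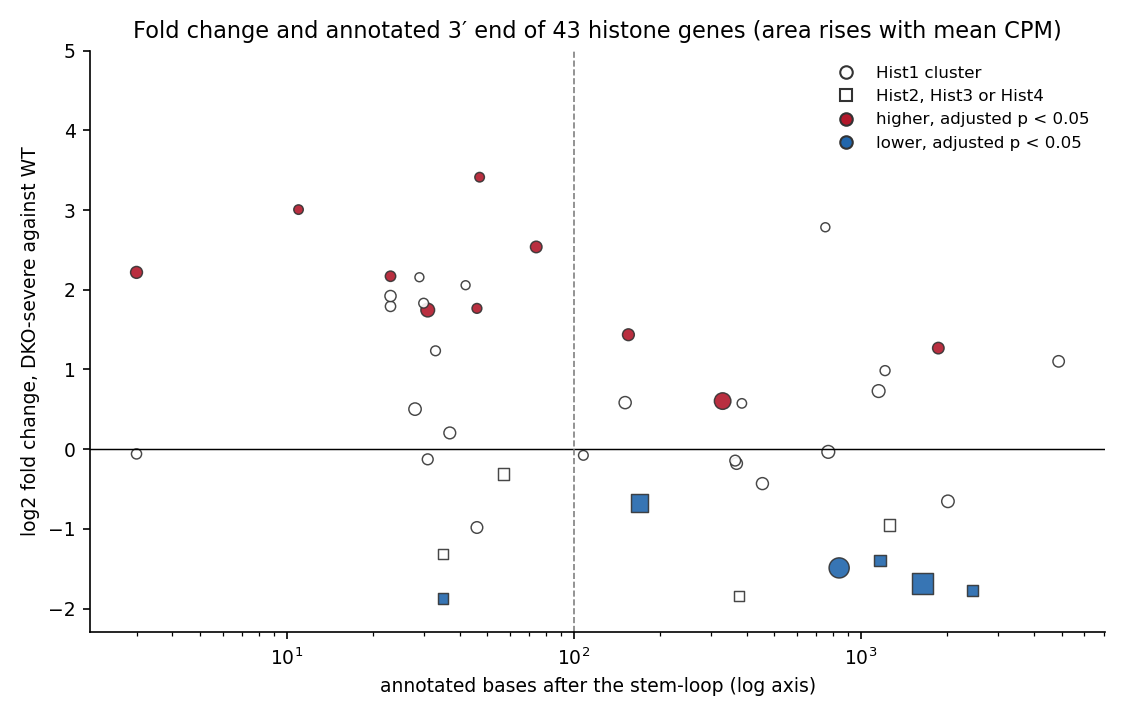
log2 fold change of DKO-severe against WT and the number of annotated bases after the stem-loop (log axis) for the 43 members with the pattern. Circles are Hist1 genes and squares are others, red and blue passed an edgeR adjusted p of 0.05, and the dashed line is at 100 bases. Left of the line 7 members are higher and 1 is lower, and right of it 3 are higher and 5 are lower.

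The promoters were compared next, for the 55 members with a RefSeq promoter in GRCm38.p6, taken from 250 bases before to 50 after the start. Each motif was searched for as exact letters on both strands. CCAAT was found in 46 of 55, 83.6%, against 41.1% of 27025 genes, and in 3 of the 12 H4 promoters. TATAAA was found in 31, 56.4%, against 15.7% of all genes. The octamer ATTTGCAT, known from H2B promoters, was found in 11, 20%, against 1.97% of all genes, in 6 H2B and 5 H2A promoters and in no other type. Examples from genes on either side of the direction are given with the octamer, or its reverse complement, in capitals.
Hist1h2bm (H2B, chr13:21722011-21722034, + strand): tcgtctctATTTGCATaacagcgt
Hist1h2bg (H2B, chr13:23571333-23571356, + strand): agtcccttATTTGCATagaacctc
Hist1h2ab (H2A, chr13:23750951-23750974, + strand): aggcctttATGCAAATgaggagct
Hist3h2a (H2A, chr11:58954558-58954581, + strand): taaggcatATGCAAATtaggaagg
The window of Hist1h2bg is also, on the other strand, that of Hist1h2ae, with which it shares its promoter, so this site is counted for both genes. The sites of Hist1h2ac, Hist2h2ac, and Hist3h2a likewise lie between the gene and a member on the opposite strand. Those members are Hist1h2bc, Hist2h2be, and Hist3h2bb-ps. Such sites are therefore not shown to belong to the H2A gene alone. The first 3 genes were higher in DKO-severe cells and Hist3h2a was lower. These examples were picked from members that passed. Of the 11 members with the octamer, Hist1h2be was also higher, Hist3h2a was the only lower one, and the rest did not pass. Over all genes tested, 26.6% were higher and 25.9% were lower. Whether the octamer goes with either direction was not tested.

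H2A and H2B genes often lie head to head, and 10 pairs of members had start sites within 1000 bases on opposite strands, 9 of an H2A and an H2B gene and 1 of an H2B and an H3 gene. In 8 pairs both genes had the same sign in DKO-severe against WT, but 1 of these, Hist3h2a with Hist3h2bb-ps, rests on a log2 fold change of -0.04, which turned positive with DESeq2, with its size factors, with library size alone, and with only both groups compared. Hist1h2ag and Hist1h2bj, 269 bases apart, had log2 fold changes of 2.17 and 1.92, and Hist2h2ac and Hist2h2be, 238 bases apart, -0.31 and -0.81. Hist1h2ac and Hist1h2bc, 250 bases apart, differed in sign, at -0.65 and 0.12, and neither passed. The other pair of unlike sign was Hist1h2bh and Hist1h3f, 659 bases apart, at 0.99 and -0.14.

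Genes of the same pathway were measured in the same fit. Of 23 S phase and cycling genes, 21 were higher and none was lower in DKO-severe cells. These 21 were 91.3%, against 26.6% of all genes tested, and the median log2 fold change of the 23 was 1.81. In DKO-moderate against WT, 15 were higher, or 65.2% against 12.3% of all genes tested. Mki67, a marker of cycling cells, was at 31.9 ± 12.6 CPM for WT, 89.0 ± 15.6 for DKO-moderate, and 299 ± 112 for DKO-severe libraries (log2 fold change of DKO-severe against WT 3.23, edgeR adjusted p = 1.2e-05). Top2a (topoisomerase II) and Ccna2 (cyclin A) had log2 fold changes of 2.90 and 3.42, Mcm6, a subunit of the replicative helicase, 1.81, and Pcna, the sliding clamp of replication, 0.37, and all passed. DKO-severe library 2 was the lowest of its group for each of these 5 genes, and for all but Pcna it still lay above every WT library. The Pcna call was lost without WT library 1 or 4 or DKO-severe library 1 (highest edgeR adjusted p = 0.073).

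Of 17 genes for histone gene transcription and histone mRNA processing, 3 were higher and 6 were lower, or 17.6% and 35.3% against 26.6% and 25.9% of all genes tested. Slbp, which encodes the stem-loop binding protein, was at 58.5 ± 3.95 CPM for WT, 87.2 ± 7.26 for DKO-moderate, and 116 ± 12.2 for DKO-severe libraries, with no overlap between the groups (log2 fold change of DKO-severe against WT 0.99, edgeR adjusted p = 1.1e-05, and of DKO-moderate 0.58, edgeR adjusted p = 0.0016). Zfp473, a zinc finger protein of histone pre-mRNA processing, rose from 0.693 to 1.54 CPM (edgeR adjusted p = 0.030). Srrt and Upf1, which act in RNA processing and in the decay of histone mRNA, were lower by 0.31 and 0.28 on the log2 scale (edgeR adjusted p = 0.020 and 0.019). Calls were lost for Zfp473 without WT library 1, 2, or 3 or DKO-severe library 3 or 4 (highest edgeR adjusted p = 0.081), for Srrt without WT library 2 or DKO-severe library 1, 2, or 3 (0.068), and for Upf1 without DKO-severe library 3 or 4 (0.085). Neither Srrt nor Upf1 passed without DKO-severe libraries 1 and 2 or with scaling by library size alone or DESeq2's size factors. Sympk and Cpsf3, parts of the cleavage machinery, did not pass (log2 fold changes -0.09 and -0.15).

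Of 11 replication-independent histone genes, 7 were higher and 3 were lower, or 63.6% and 27.3% against 26.6% and 25.9% of all genes tested. H2afz (H2A.Z) went from 174 ± 7.86 CPM in WT to 446 ± 92.1 in DKO-severe libraries, a log2 fold change of 1.36 (edgeR adjusted p = 1.9e-05). H1fx, a dispersed H1 gene, was at 0.0999 ± 0.165 CPM in WT and at 2.95, 4.11, 5.43, and 30.9 CPM in DKO-severe libraries 1 to 4. H2afy2 (macroH2A) had 1 read in WT and 553 in DKO-severe libraries, a ratio of 514 after scaling (95% exact interval 91.9 to 20354, for counting error only), and was at 1.59, 0.152, 6.71, and 5.19 CPM in DKO-severe libraries. H3f3b and H2afy, the other macroH2A gene, were lower by 0.39 and 0.36 on the log2 scale (edgeR adjusted p = 0.035 and 0.0058), and H3f3a did not pass (log2 fold change 0.17, edgeR adjusted p = 0.070). The H3f3b call was lost with DESeq2 (adjusted p = 0.066), without DKO-severe libraries 1 and 2 (edgeR adjusted p = 0.16), and without WT library 1, 2, or 4 or DKO-severe library 2, 3, or 4 (highest edgeR adjusted p = 0.11), and both genes' calls were lost with library size alone.

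Of 23 histone chaperone genes, 22 were tested, and 7 were higher and 5 were lower, or 31.8% and 22.7%, near the 26.6% and 25.9% of all genes tested. Chaf1a, a subunit of the assembly factor that loads histones behind the replication fork, and Asf1b, which hands H3 and H4 to it, had log2 fold changes of 2.92 and 2.11 (edgeR adjusted p = 2.2e-05 and 2.0e-05). Npm1 was lower by 0.41 on the log2 scale (edgeR adjusted p = 0.0056, and 0.077 without DKO-severe libraries 1 and 2), and Atrx, Nap1l1, and Rbbp4 did not pass (log2 fold changes -0.17, 0.14, and 0.07).

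**Figure D5:**
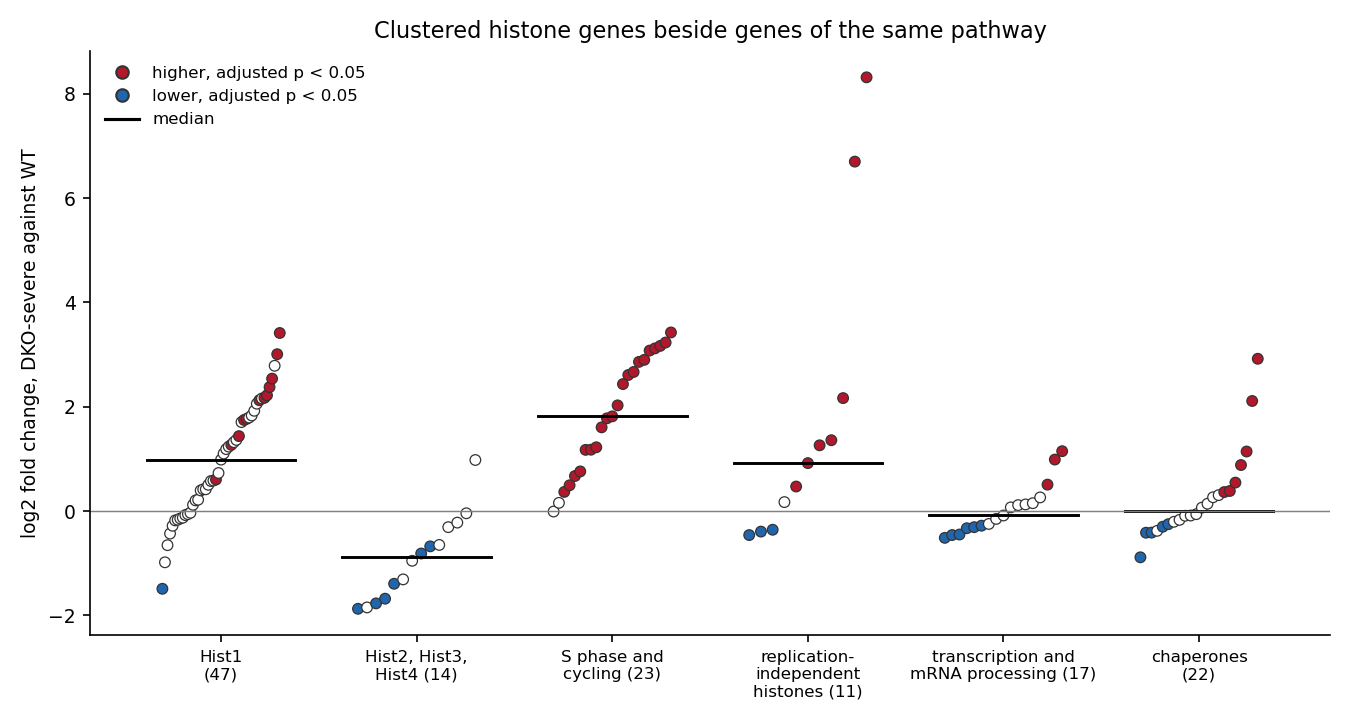
log2 fold changes of DKO-severe against WT for Hist1 members, members of the other clusters, and 4 lists of pathway genes. Each point is a gene, red and blue passed an edgeR adjusted p of 0.05, and the line is the median, 0.99 in Hist1, -0.88 in the other clusters, and 1.81 in the S phase and cycling list. The highest point, H2afy2, had 1 read in WT, so its fitted value depends on the prior count.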

How the data were processed

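CD4+ YFP(FOXP3)- T cells were measured in 12 libraries, with groups taken from the sample titles. The labels number the libraries and do not say that each is a separate mouse, so p-values measure the spread between libraries. Per the paper's methods, the authors sequenced directional libraries in paired-end mode, aligned them to mm10 with STAR 2.7.11 keeping reads with 1 position, and counted them with htseq-count (reverse strand). The annotation used is not given in the sources used here. The deposited values are raw counts per gene. Rows that name no gene, 18.5% to 23.7% of a library, were left out.

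Counts were fitted with edgeR 4.0.16 (R 4.3.3) by its quasi-likelihood test over all 12 libraries and 3 groups, with TMM scaling, at least 10 reads in a condition, and Benjamini-Hochberg adjustment over 16035 genes. The procedure was tested on simulated counts. Exact permutation tests were two-sided. No 2 libraries of a group were copies (chi-square per degree of freedom at least 20.2).

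The named members are the 3 with the most reads and the 2 largest changes of each type (mean of at least 1 CPM in a group), Hist1h1c, Hist1h2bc, Hist2h2be, all of Hist2, Hist3, and Hist4, and every member that was lower, 27 in all; 8 more that were higher were named after their values were seen. From each pathway list, the 4 genes with the most reads and the 2 largest changes were named. Members and lists were chosen with earlier results of these data known. The symbol Supt16 matched no gene listed. Positions and transcripts are from GENCODE vM21 (GRCm38), which may differ from the annotation behind the counts, and 7 members overlap another gene on their strand. Alternatives were DESeq2 1.42.0, other scalings, no filter, 2 groups at a time, a replicate block, marker terms, and leaving out libraries. The selection of RNA is not given in the sources used here, so how far tail-less transcripts were captured is unknown.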

Additional observations from a re-analysis of the deposited data

Results flagged for a closer look

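In 123 groups of 4 libraries of the named members and sums, the gap of the highest or lowest library to the nearest other was set against the range of the group, and 11 groups passed Dixon's 95% critical value for 4 samples. Chance alone flags about 1 in 20 groups. DKO-moderate library 4 stood above the others of its group for Hist1h1b (0.636 CPM, others 0.186 to 0.252), Hist1h2ag (0.530, others 0.199 to 0.252), Hist1h3c (1.30, others 0.292 to 0.378), and Hist1h3h (0.424, others 0.0797 to 0.126). DKO-severe library 4 stood above the others for Hist1h3c (1.70, others 0.833 to 0.913) and Hist1h3h (0.359, others 0.213 to 0.238) and below them for Hist1h4i (4.76, others 5.57 to 5.65). DKO-severe library 2 stood below the others for Hist1h2ag (0.183, others 0.550 to 0.571) and above them for Hist1h2be (1.07, others 0.670 to 0.714). DKO-severe library 3 stood below the others for Hist2h2be (6.40, others 7.34 to 7.40). WT library 4 was the only one of its group with reads on Hist1h3g, at 0.0820 CPM.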

How the results depend on the processing

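The counts of members called in DKO-severe against WT, 12 higher and 7 lower, were 14 and 7 with DESeq2, 12 and 7 without the filter, 11 and 7 with a replicate block (Hist1h2bg and Hist1h4i lost, Hist1h3d gained), and 10 to 15 and 7 to 8 when 1 library was left out. Scaling by library size alone, which moved the median of all genes by 0.18 (log2), gave 14 and 6, against 34.1% higher and 17.2% lower over all genes. With neutrophil and B cell marker terms the counts of members were 1 and 0, against 11.5% and 4.38% over all genes. Leaving out DKO-severe libraries 1 and 2, an alternative chosen after seeing the data, gave 10 and 6, against 23.6% and 18.8% over all genes. The cause of these changes was not tested.

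In DKO-moderate against WT, the 1 higher, Hist1h2be, became 3 with DESeq2 (Hist1h1b and Hist1h4b gained), 2 with the replicate block (Hist1h4b and Hist1h4f, with Hist1h2be lost), 0 without the filter, with only both groups, and with marker terms, and 0 to 4 when 1 library was left out, 4 without WT 4 (Hist1h1b, Hist1h3c, Hist1h3g, and Hist1h4b, with Hist1h2be lost). The 3 lower became 2 without the filter and with the replicate block, 1 with marker terms, and 1 to 3 with 1 library left out, 1 without WT 1, WT 4, or DKO-moderate 2. The shares of all genes higher and lower were 15.7% and 8.86% with DESeq2 and 9.44% and 2.95% with marker terms. In DKO-severe against DKO-moderate, the 2 higher became 0 with marker terms and 1 to 2 with 1 library left out. With marker terms, 0.561% of all genes tested were higher and 0.0811% were lower. The 4 lower became 3 with DESeq2 and with its size factors, 2 without the filter, 1 with library size alone and with the replicate block, 0 with only both groups, with marker terms, and without DKO-severe 1 and 2, and 0 to 7 with 1 library left out. It was 0 without DKO-moderate 1 or 3 or DKO-severe 1, 3, or 4, and 7 without DKO-moderate 2. The share of all genes lower was 10.4% with DESeq2, 6.37% with library size alone, and 7.65% with the replicate block. It was 6.13% with only both groups, 5.62% without DKO-severe 1 and 2, and 12.1% without DKO-moderate 2. The members' share of unscaled reads in DKO-severe was 62.4 per 1000000, against 58.3 CPM.

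Replicate numbers were not treated as pairs, since deviations of same-numbered libraries had a median correlation of -0.034 (-0.272 to 0.208), against 0.013 between different numbers.

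Values that changed sign are log2 fold changes, and none of them passed the threshold in the main comparison. With DESeq2, DKO-severe against WT gave 0.0415 for Hist1h4d and 0.0362 for Hist3h2bb-ps, and DKO-severe against DKO-moderate gave 0.00322 for Hist3h2bb-ps, 0.0423 for Atrx, 0.0152 for H3f3b, 0.0526 for Rbbp4, and 0.0603 for Sympk. With DESeq2's size factors the same values were 0.0517, 0.0403, 0.00765, 0.0423, 0.0152, 0.0525, and 0.0606. With library size alone, DKO-severe against WT gave 0.00217 for Hist1h3e, 0.151 for Hist1h4d, 0.14 for Hist3h2bb-ps, 0.0161 for Atrx, 0.0334 for Cpsf3, and 0.10 for Sympk, DKO-moderate against WT gave 0.0417 for Cpsf3, 0.0177 for Srrt, 0.00654 for Sympk, and 0.000235 for Upf1, and DKO-severe against DKO-moderate gave 0.0408 for Hist3h2bb-ps, 0.0822 for Atrx, 0.0412 for H3f3b, 0.0828 for Rbbp4, and 0.0935 for Sympk. With marker terms, DKO-severe against WT gave -0.0061 for Hist2h2ab, 0.637 for Hist2h2bb, 0.245 for Atrx, and 0.00212 for Sympk, DKO-moderate against WT gave -0.096 for Hist2h2ab and -0.0165 for Hist3h2bb-ps, and DKO-severe against DKO-moderate gave -0.0102 for Hist1h1b, 0.293 for Atrx, -0.0531 for H3f3a, and 0.0614 for Sympk. Without DKO-severe 1 and 2, DKO-severe against WT gave -0.0629 for Hist1h2bc and 0.0277 for Hist2h2bb, and DKO-severe against DKO-moderate gave 0.0677 for Atrx, 0.0484 for Rbbp4, and 0.0312 for Sympk. With only both groups, DKO-severe against WT gave 0.0212 for Hist1h4d and 0.00914 for Hist3h2bb-ps. With the replicate block, it gave 0.00304 for Hist1h4d, and DKO-moderate against WT gave -0.000967 for Nap1l1.

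With 1 library left out, DKO-severe against WT ranged from -0.0239 to 0.239 for Hist1h2bc, -0.205 to 0.151 for Hist1h4d, -0.595 to 0.00398 for Hist2h2ac, -0.409 to 0.115 for Hist2h2bb, and -0.161 to 0.173 for Hist3h2bb-ps. DKO-moderate against WT ranged from -0.361 to 0.730 for Hist2h2ab, -0.0121 to 0.433 for Hist2h4, -0.157 to 0.243 for Hist3h2bb-ps, -0.505 to 0.199 for Hist4h4, -0.236 to 0.0164 for Atrx, -0.0307 to 0.0562 for Nap1l1, and -0.100 to 0.00545 for Srrt. DKO-severe against DKO-moderate ranged from -0.139 to 0.533 for Hist1h1e, -0.556 to 0.0291 for Hist1h2ac, -0.215 to 0.145 for Hist3h2bb-ps, -0.154 to 0.0668 for Atrx, -0.142 to 0.0406 for H3f3b, -0.0546 to 0.0679 for Rbbp4, -0.0489 to 0.046 for Sympk, and -0.0505 to 0.415 for Zfp473.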
